A study of Mus musculus with 76 samples.

Results

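The genes described here are those of the interferon response and of antigen presentation. They were the entries of the deposited tables whose symbol begins with H2-, the prefix of the mouse major histocompatibility complex (MHC), together with 36 named genes of MHC class I and class II presentation and of interferon signalling. The table of visceral white adipose tissue (WAT) held 58 of these genes among 18964 entries, and the liver table held 62 among 16775. A gene was tested where its normalized count, the read count divided by a size factor for the library, averaged at least 10 over the libraries of the tissue, which left 47 of the 58 in WAT and 49 of the 62 in liver. Just inside this limit in WAT was H2-DMb2, with a mean of 10.7, and just outside it was H2-T24, with 6.25. In liver, Xaf1 (11.01) was just inside and H2-DMb2 (9.60) just outside. RNA came from female mice with free access to food, and both genotypes were on a C57BL/6 background. Fnip2 C/C mice carry a T-to-C change that was engineered by CRISPR in the 3′ untranslated region of Fnip2, plus a G-to-C change nearby that removes the cut site of the guide. Fnip2 T/T mice carry the base found in the mouse genome and served as controls. The WAT libraries came from 4 C/C mice (numbers 590, 593, 599 and 638) and 5 T/T mice (607, 608, 609, 657 and 658), and the livers from 5 C/C mice (590, 591, 592, 638 and 639) and 5 T/T mice (607, 608, 657, 658 and 659). Of the 13 mice, 6 gave both tissues. The ages of these mice are not given in the sources used here, and neither is the number of founders of the edited line. Values are listed below in this order of mice.

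Nearly all cells show peptides from their own cytosol on MHC class I molecules, which are made of a heavy chain (H2-K1 or H2-D1 in these mice) and the shared light chain B2m. Peptides are pumped into the endoplasmic reticulum by the transporter Tap1 and Tap2 and are loaded with the help of tapasin (Tapbp). MHC class II molecules pair an alpha chain such as H2-Aa with a beta chain such as H2-Ab1, travel with the invariant chain Cd74, and are found mainly on macrophages, dendritic cells and B cells. Interferons bind receptors on the cell surface that signal through Jak kinases and Stat factors, and interferon regulatory factors (IRFs) then switch on interferon-stimulated genes, many of which act against viruses. Class I and class II genes are themselves raised by interferon gamma, class I largely through the regulator Nlrc5 and class II through Ciita.

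The recovered reads ranged from 4180209 to 6277644 per WAT library and from 5583041 to 7523200 per liver library. They count reads and not independent molecules. The normalized count of Fnip2 itself was 22.8 ± 6.99 (SD, n = 4) in C/C and 28.3 ± 10.5 (SD, n = 5) in T/T WAT, and 155 ± 29.2 (SD, n = 5) and 104 ± 33.2 (SD, n = 5) in liver; the tables do not read the edited base. The WAT library of C/C mouse 593 stood apart in markers of the ovary, whose normalized counts summed to 24238 there and to between 33.5 and 118 in the other 8 WAT libraries. The share of reads in small nucleolar RNA (snoRNA) genes also separated the genotypes in WAT. It was 0.0371, 0.154, 0.0276 and 0.0722% in the C/C libraries and 0.0129, 0.0196, 0.0132, 0.0141 and 0.00949% in the T/T libraries, whereas in liver it was 0.0201, 0.0187, 0.0293, 0.026 and 0.0223% and 0.0109, 0.0134, 0.025, 0.0137 and 0.0165%, with overlap.

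**Figure D1:**
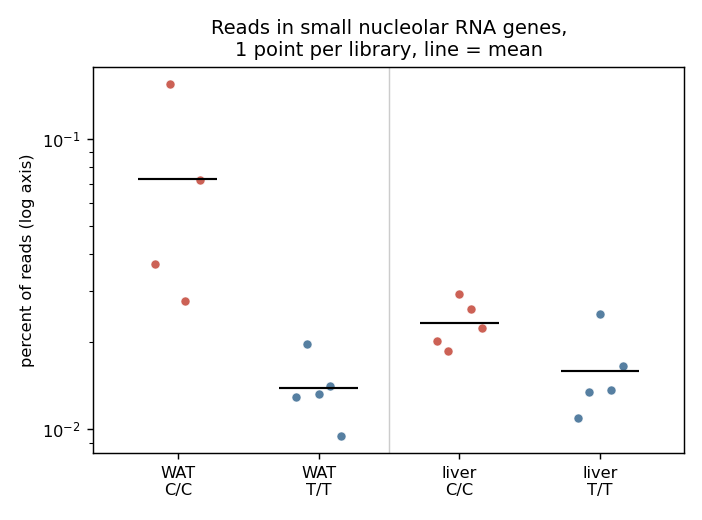
Percent of reads in snoRNA genes in each library (log axis), by tissue and genotype, with 1 point per library and a line at the mean. The 4 C/C WAT libraries lie between 0.0276% and 0.154%, above all 5 T/T WAT libraries, and the liver groups overlap.

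In WAT, 23 of the 47 members tested differed between the genotypes at a limma adjusted p under 0.05, with 19 lower and 4 higher in C/C. Over all 12798 genes tested in WAT, 32.1% differed, 17% lower and 15.1% higher. The median log2 fold change (C/C minus T/T throughout, with its standard error, SE, where single genes are given) was -0.44 over the 47 members and 0.02 over all genes. The libraries of the genotypes did not overlap for 13 members that were lower and 3 that were higher in C/C, where 26.1% of all genes tested in WAT did not overlap. In liver, limma called none of the 49 members, with 0% of the 11710 genes tested called, and the median log2 fold change was -0.07 over the members and 0.01 over all genes. The WAT calls did not survive every model. With the snoRNA share of each library as a further term, which was added once the values were known, limma called 0 of the 47 members and 0 of the 12798 genes, while 8 members and 1683 genes had an unadjusted p under 0.05. Since that share does not overlap between the genotypes in WAT, its effect and that of the genotype cannot be told apart in these libraries.

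**Figure D2:**
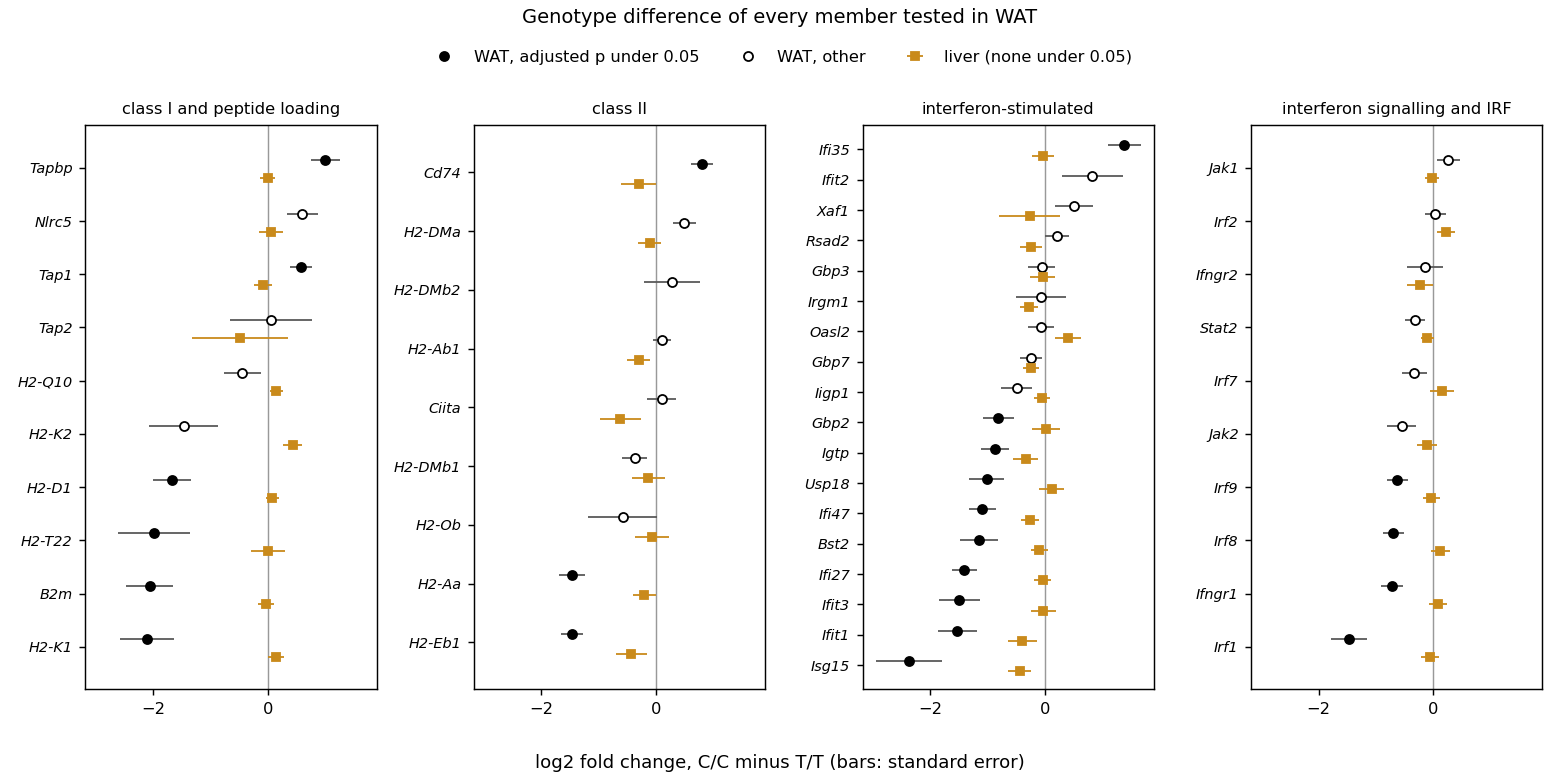
Log2 fold change (C/C minus T/T, on the log2(normalized count + 1) scale) of each of the 47 members tested in WAT, in 4 classes, with bars of 1 standard error. Filled circles are WAT members with a limma adjusted p under 0.05 (19 lower and 4 higher), open circles the other WAT members, and squares the same genes in liver where they were tested, of which none passed.

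The class I light chain B2m and the heavy chains H2-K1 and H2-D1 were lower in C/C WAT, whereas Tapbp and Tap1, which take part in peptide loading, were higher. Of the 10 class I and peptide loading genes tested in WAT, out of 18 in the table, 4 were lower (B2m, H2-K1, H2-D1 and H2-T22), 2 were higher (Tapbp and Tap1) and 4 did not pass. The share called was 60%, where 32.1% of all genes tested in WAT were called. B2m, the light chain, had normalized counts of 13875, 3684.5, 7409.6 and 2626 in the C/C libraries and of 21798, 26122, 16281, 30832 and 24188 in the T/T libraries. The groups did not overlap, and C/C mouse 590 lay closest to the T/T libraries. The mean was 6899 ± 5083 (SD, n = 4) against 23844 ± 5374 (SD, n = 5), and the log2 fold change was -2.05 (SE 0.41, limma adjusted p = 0.00336), or 4.15-fold lower in C/C. An exact two-sided permutation test of B2m alone gave p = 0.00794, the smallest that the 126 groupings allow.

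The classical heavy chain H2-K1 had counts of 379, 87.0, 214 and 194 in C/C and 1074, 566, 336, 1401 and 1339 in T/T WAT. Here the highest C/C library (mouse 590) was above the lowest T/T library (mouse 609). Its log2 fold change was -2.10 (SE 0.47, limma adjusted p = 0.0063), with an exact two-sided permutation p of 0.0238. H2-D1, the second classical heavy chain, had counts of 1463, 473, 775 and 819.9 in C/C and 3124, 1915, 1594, 3338 and 3711 in T/T WAT. Those groups did not overlap, and the log2 fold change was -1.67 (SE 0.33, limma adjusted p = 0.00312). The nonclassical heavy chain H2-T22 fell as well, by a log2 fold change of -1.98 (adjusted p = 0.0318), but its T/T libraries spread from 11.2 to 114 and 5 of the 9 libraries, each left out alone, ended its call.

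Tapbp, which bridges the transporter and the empty class I molecule, had counts of 3538, 3085, 3459 and 5697 in C/C and 1315, 2347, 2584, 1783 and 1764 in T/T WAT. Every C/C library was above every T/T library, and the log2 fold change was 1.01 (SE 0.25, limma adjusted p = 0.00927). Tap1, one subunit of the peptide transporter, had counts of 517, 368, 387 and 396 in C/C and 250.3, 387, 233, 297 and 238 in T/T WAT, with the T/T mouse 608 above 2 of the C/C libraries. Its log2 fold change was 0.58 (SE 0.19, limma adjusted p = 0.0356), and this call was lost under quantile normalization, under scaling to the same total and without any one of 7 mice (590, 599, 638, 607, 609, 657 or 658). The other subunit, Tap2, was sparse in WAT, with counts from 2.23 to 36.4, and did not pass. Nlrc5, the class I transactivator, had counts of 154, 83.3, 167 and 193 in C/C and 93.5, 109, 129, 85.3 and 62.9 in T/T WAT, with overlap and a log2 fold change of 0.61 (SE 0.27, limma adjusted p = 0.1). Nlrc5 in WAT passed as higher in C/C with library weights (0.77, adjusted p = 0.0187 in limma) and without C/C mouse 593 (0.86, adjusted p = 0.0179). H2-K2, an annotated pseudogene, and H2-Q10, a secreted class I molecule made mainly by liver, had log2 fold changes of -1.46 (adjusted p = 0.0764) and -0.44 (adjusted p = 0.309) in limma. The 8 class I genes below the count limit in WAT were H2-M3, H2-M5, H2-M9, H2-Q4, H2-Q5, H2-T10, H2-T23 and H2-T24.

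**Figure D3:**
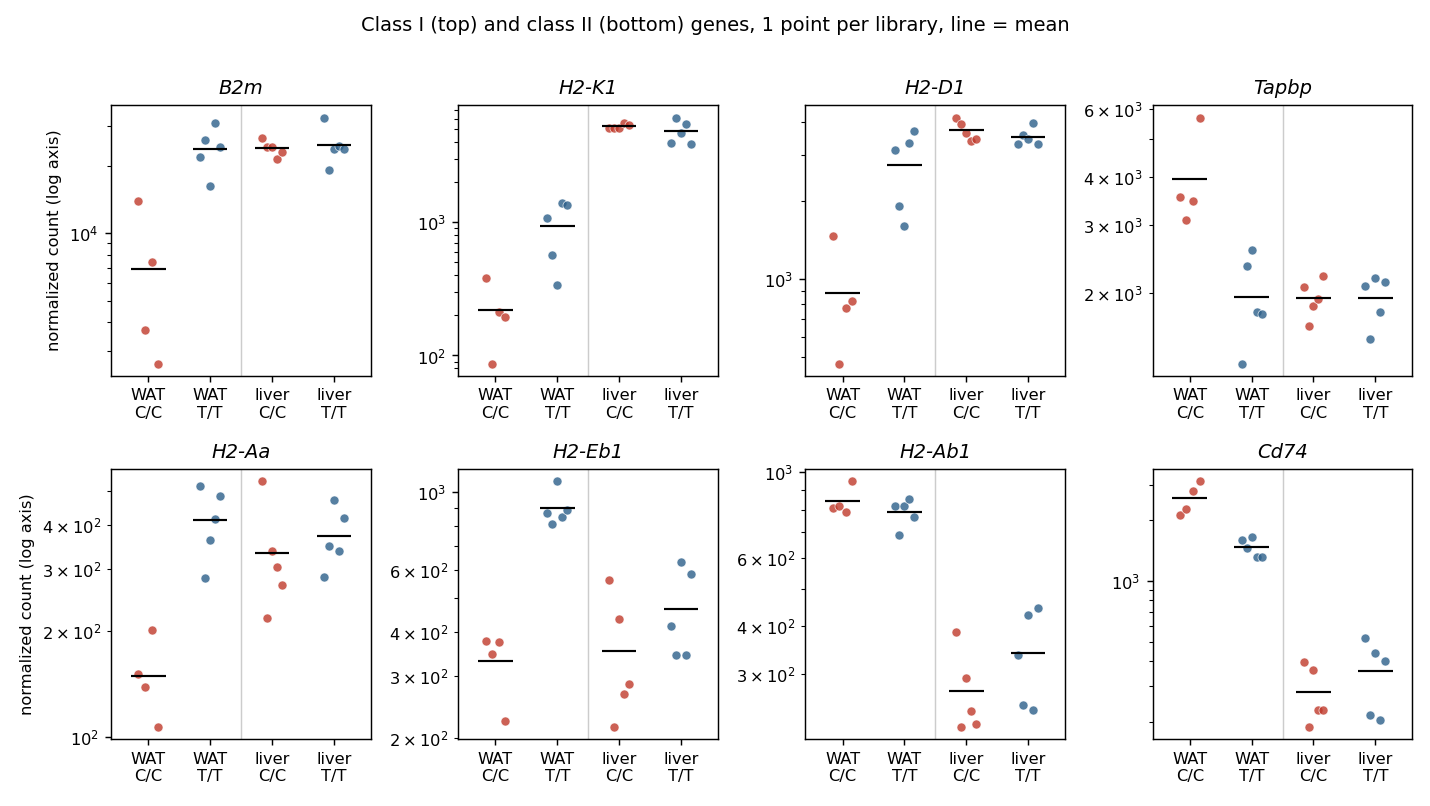
Normalized counts (log axis) of 4 class I genes (B2m, H2-K1, H2-D1, Tapbp) and 4 class II genes (H2-Aa, H2-Eb1, H2-Ab1, Cd74) in each library, with 1 point per library and a line at the mean; the grey line parts the tissues, whose tables were normalized separately. In WAT the C/C libraries lie below the T/T libraries for B2m, H2-D1, H2-Aa and H2-Eb1 and above them for Tapbp and Cd74, while the liver groups overlap in every panel.

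Class II genes did not move together in WAT. Of 9 tested, out of 10 in the table, H2-Aa and H2-Eb1 were lower in C/C, Cd74 was higher, and 6 did not pass, and the median log2 fold change was 0.09. The share called, 33.3%, was close to the 32.1% of all genes tested in WAT. H2-Aa, the alpha chain of the H2-A molecule, had counts of 151, 139, 200.52 and 107 in C/C and 517, 283, 363, 415 and 482 in T/T WAT. No C/C library reached the lowest T/T library, and the log2 fold change was -1.47 (SE 0.22, limma adjusted p = 0.00102). H2-Eb1 encodes the beta chain of the H2-E molecule, for whose alpha chain neither tissue had an entry. It had counts of 378, 345, 374 and 223 in C/C and 872, 811, 1072, 849.8 and 889.7 in T/T WAT. These groups were also apart, with a log2 fold change of -1.47 (SE 0.19, limma adjusted p = 0.000615), the lowest adjusted p of any member.

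H2-Ab1, the beta chain that pairs with H2-Aa, had counts of 809, 819, 791 and 949 in C/C and 819.8, 689, 818, 854 and 767 in T/T WAT. The groups overlapped and the log2 fold change was 0.09 (SE 0.16, limma adjusted p = 0.676). Cd74, the invariant chain, had counts of 2128, 2262, 2777 and 3124 in C/C and 1603.5, 1456, 1659, 1311 and 1310.3 in T/T WAT. Each C/C library was above each T/T library, by a log2 fold change of 0.80 (SE 0.19, limma adjusted p = 0.00685), or 1.74-fold. The class II transactivator Ciita had counts of 63.5, 44.0, 32.5 and 46.9 and 48.4, 43.8, 32.4, 50.6 and 40.2, and its log2 fold change of 0.09 (adjusted p = 0.8) in limma changed sign under other settings. The peptide exchange factor H2-DMa had 0.49 (adjusted p = 0.0825), its partners H2-DMb1 and H2-DMb2 -0.38 (adjusted p = 0.214) and 0.28 (adjusted p = 0.688), and H2-Ob, part of the H2-DM inhibitor, -0.58 (adjusted p = 0.477). Summed over the class II genes, the normalized counts ran from 3747 to 4703 in C/C and from 3517 to 4187 in T/T WAT, with overlap.

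The unequal movement within each class was seen within single libraries as ratios of counts, which were chosen after the values were seen and are given as a description. The ratio of Cd74 to H2-Aa was 14.1, 16.3, 13.8 and 29.3 in C/C WAT and 3.10, 5.14, 4.57, 3.16 and 2.72 in T/T WAT, with no overlap. In liver the same ratio ran from 0.741 to 1.07 in C/C and from 0.606 to 1.82 in T/T. The beta chains also parted, since the ratio of H2-Ab1 to H2-Eb1 was 2.12 to 4.26 in C/C and 0.764 to 1.00 in T/T WAT. Between the chains that fell, H2-Eb1 and H2-Aa, the ratio stayed within 1.86 to 2.51 in C/C and 1.69 to 2.95 in T/T WAT. The ratio of B2m to Tapbp was 3.92, 1.19, 2.14 and 0.461 in C/C and 16.6, 11.1, 6.30, 17.3 and 13.7 in T/T WAT, while in liver both genotypes lay between 10.4 and 15.7. A ratio within a library shows that genes changed unequally, not which of them did not change.

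**Figure D4:**
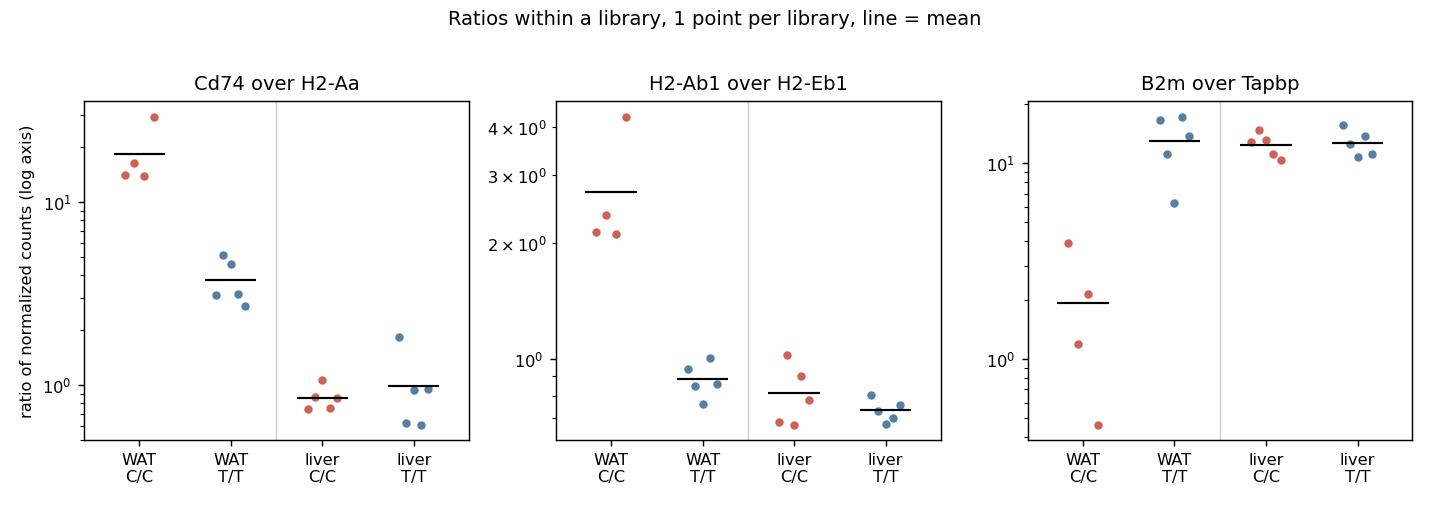
Ratios of normalized counts within a library (log axis) for Cd74 over H2-Aa, H2-Ab1 over H2-Eb1 and B2m over Tapbp, with 1 point per library and a line at the mean. The WAT genotypes lie apart in all 3 panels, for example 13.8 to 29.3 against 2.72 to 5.14 for Cd74 over H2-Aa, and the liver genotypes overlap.

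The start regions of these genes in RefSeq (GRCm38.p6, 250 bases before to 50 after the start) were searched for the Y box core CTGATTGG on both strands, the letters read by the factor NF-Y in MHC promoters. It was found in 45.8% of 24 H2 gene promoters and in 4.1% of all 32851 promoters. Windows of 30 bases around it are shown for the antigen presentation genes that moved in WAT and hold it, in the direction of the gene and with the match in capitals. The match in H2-D1, H2-K1 and Tap1 reads on the opposite strand, and that of Tap1 is the same site as in the promoter of its divergent neighbour Psmb9.
H2-Aa, chr17:34287856-34287885, minus strand: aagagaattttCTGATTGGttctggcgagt
H2-Eb1, chr17:34305794-34305823, plus strand: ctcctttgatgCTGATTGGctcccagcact
H2-D1, chr17:35263030-35263059, plus strand: gattccaggagCCAATCAGcgtcgccgcgg
H2-K1, chr17:34000321-34000350, minus strand: atcaccaagaaCCAATCAGtgtcgccgcgg
Tap1, chr17:34187323-34187352, plus strand: ggctcggctttCCAATCAGcggctgcgcgc
The first 4 belong to genes that were lower in C/C WAT and the last to one that was higher, so that this match was found with both directions. The Y box core was in 28.6% of 21 promoters of members that fell, with H2-K1 counted more than once. It was in 33.3% of 3 promoters of members that rose and in 0% of 21 of members that did not pass. These shares leave out H2 genes that were not tested in WAT, of which H2-M9, H2-Oa, H2-T23, H2-Q7 and H2-Eb2 also hold it. The match is thus not particular to genes that moved. H2-Ab1 had no promoter entry and was not searched. These shares were not tested.

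Of the interferon-stimulated genes, more were lower than higher in C/C WAT, and 8 did not pass the test. Of 18 tested, out of 19 in the table, 9 were lower (Isg15, Ifit1, Ifit3, Ifi27, Ifi47, Bst2, Usp18, Igtp and Gbp2), and Ifi35 was higher, with a median log2 fold change of -0.65. The share called was 55.6%, where 32.1% of all genes tested in WAT were called. Ifi27, which encodes a small membrane protein, had counts of 861, 463, 788 and 542 in C/C and 1656, 1381.5, 1565, 1784 and 2208 in T/T WAT. The groups did not overlap, with a log2 fold change of -1.40 (SE 0.22, limma adjusted p = 0.00118). Isg15, a ubiquitin-like protein that is joined to other proteins, had counts of 8.23, 0.936, 2.17 and 5.86 in C/C and 36.9, 12.6, 11.2, 22.8 and 41.7 in T/T WAT. Its log2 fold change was -2.37 (SE 0.57, limma adjusted p = 0.00812), the largest fall of any member that passed, but its C/C libraries held only a few reads each. Isg15 passed the count limit in WAT only through the T/T libraries, so that the size of this fall is uncertain.

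Ifit1, which binds viral RNA, had counts of 17.6, 16.8, 8.67 and 19.9 in C/C and 62.4, 56.4, 26.8, 36.7 and 54.6 in T/T WAT. Ifit3, its partner, had counts of 55.3, 34.6, 50.9 and 15.2 and 83.7, 136, 108, 124 and 65.9. Neither overlapped between the genotypes, and their log2 fold changes were -1.52 (SE 0.33, limma adjusted p = 0.00509) and -1.49 (SE 0.35, limma adjusted p = 0.00744). Ifi47, a guanosine triphosphatase (GTPase) of the interferon gamma response, had counts of 60.0, 40.2, 47.7 and 39.8 in C/C and 104, 118, 64.7, 108 and 114 in T/T WAT. All C/C libraries were below all T/T libraries, with a log2 fold change of -1.09 (SE 0.23, limma adjusted p = 0.00435). Usp18, the enzyme that removes Isg15 and damps interferon signalling, had counts of 10.6, 8.42, 14.1 and 16.4 and 23.8, 29.2, 30.1, 21.8 and 22.7. Its log2 fold change was -1.02 (SE 0.30, limma adjusted p = 0.0225), a call that was lost under quantile normalization and without C/C mouse 593.

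Bst2, the protein tetherin that holds budding viruses at the cell surface, had counts of 52.9, 57.1, 20.6 and 22.3 in C/C and 73.9, 75.9, 56.9, 101 and 85.6 in T/T WAT. Mouse 593 lay just above the lowest T/T library, the log2 fold change was -1.15 (SE 0.33, limma adjusted p = 0.0181), and the call was lost without C/C mouse 599 or 638. The GTPase Igtp had counts of 133, 64.6, 67.2 and 60.9 and 145, 135, 111, 159 and 163. Here C/C mouse 590 lay within the T/T range, and the log2 fold change was -0.87 (SE 0.24, limma adjusted p = 0.0166). Gbp2, a guanylate-binding protein, fell by a log2 fold change of -0.81 (adjusted p = 0.0323), and 6 of the 9 mice, each left out alone, ended that call.

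Ifi35 went the other way, with counts of 219, 205, 467 and 429 in C/C and 91.9, 139, 179, 95.2 and 104 in T/T WAT. Every C/C library was above the highest T/T library, and the log2 fold change was 1.38 (SE 0.29, limma adjusted p = 0.00402), or 2.60-fold. Rsad2 (viperin), an antiviral enzyme that is commonly used as a marker of type I interferon, had counts of 592, 380.0, 351 and 579 in C/C and 446, 393, 330.4, 486 and 361.5 in T/T WAT. These groups overlapped, with a log2 fold change of 0.21 (SE 0.21, limma adjusted p = 0.455). Ifit2, Xaf1, Gbp3, Gbp7, Iigp1, Irgm1 and Oasl2 did not pass either, with log2 fold changes from -0.49 (Iigp1) to 0.82 (Ifit2), and Socs1 was below the count limit.

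**Figure D5:**
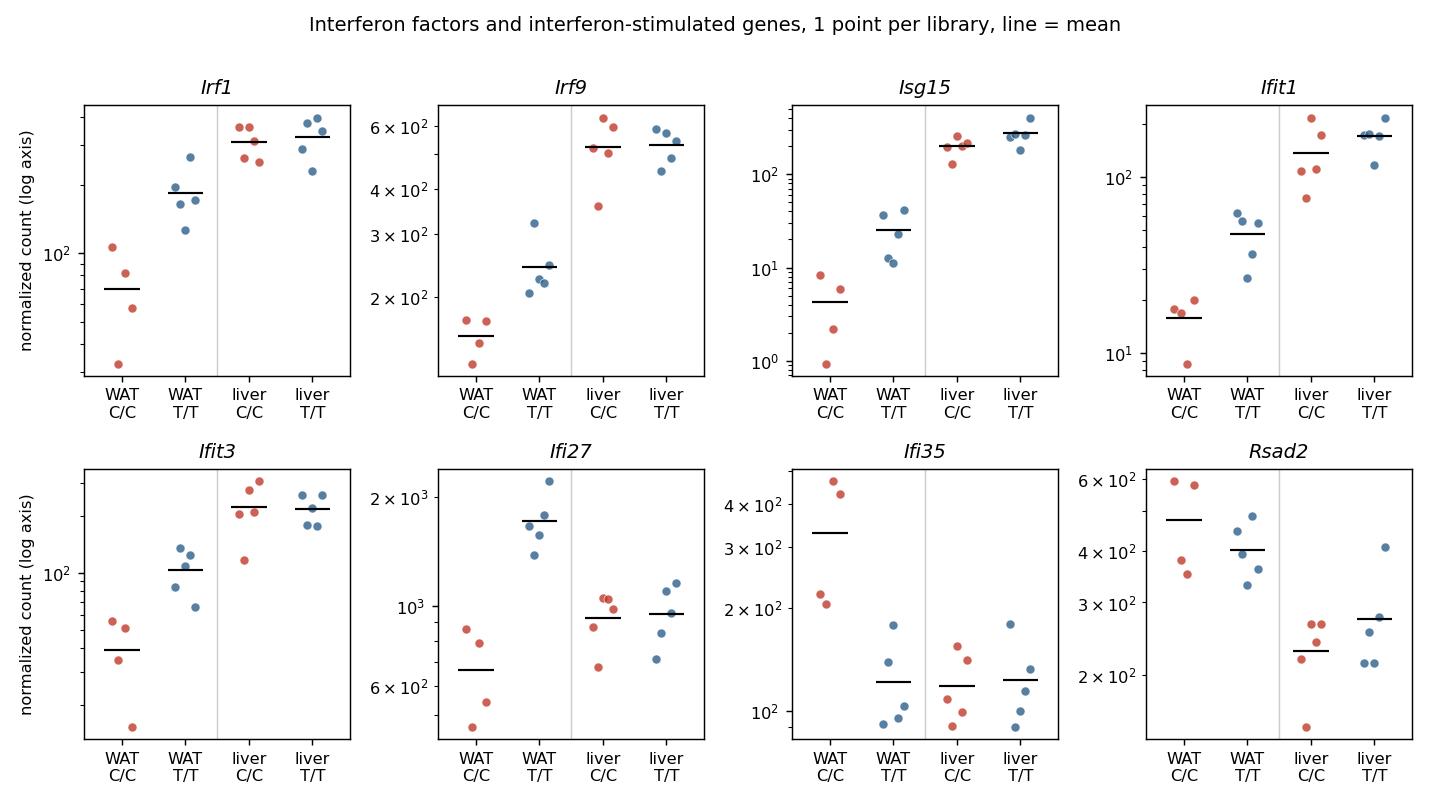
Normalized counts (log axis) of 2 interferon regulatory factors (Irf1, Irf9) and 6 interferon-stimulated genes (Isg15, Ifit1, Ifit3, Ifi27, Ifi35, Rsad2) in each library, with 1 point per library and a line at the mean; the tissues were normalized separately. In WAT the C/C libraries lie below the T/T libraries for Irf1, Irf9, Isg15, Ifit1, Ifit3 and Ifi27, above them for Ifi35, and overlap with them for Rsad2.

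The core of the interferon-stimulated response element, GAAANNGAA, which is read by IRF and Stat complexes, was searched in the same RefSeq windows on both strands. It was found in 8.56% of all promoters and in 27.6% of the 58 promoters matched to 50 of the 64 members in either table. Among members that fell in WAT, 38.1% of 21 promoters held it, and among members that did not pass, 28.6% of 21 promoters did. Windows around it are shown for genes that fell in WAT, with the match in capitals.
B2m, chr2:122147538-122147567, plus strand: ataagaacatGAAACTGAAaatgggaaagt
Isg15, chr4:156200871-156200900, minus strand: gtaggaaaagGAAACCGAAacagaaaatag
Ifit1, chr19:34640776-34640805, plus strand: aggcttcagtTTCACTTTCcagtctcagtt
Ifit3, chr19:34583364-34583393, plus strand: agtggtaagtTTCACTTTCctcttctggtt
Gbp2, chr3:142620595-142620624, plus strand: ctcttttagtTTCACTTTCactgtcttaag
Igtp, chr11:58199512-58199541, plus strand: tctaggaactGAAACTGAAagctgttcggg
In Ifit1, Ifit3 and Gbp2 the match reads on the opposite strand. Bst2 and H2-T22, which fell, hold the core as well, and their windows are not shown. Gbp3, Gbp7, Irf2, Irgm1, Rsad2 and Stat2, which did not pass, also hold it. Of 3 promoters of members that rose, 0 held it. The gamma-activated site core TTCNNNGAA was in 8.3% of all promoters, in 17.2% of member promoters, and in the windows of both Irf1, which fell, and Ifi35, which rose. A match describes these letters only.

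Among the 10 signalling genes and IRFs, all tested in WAT, 4 were lower in C/C (Irf1, Irf8, Irf9 and Ifngr1), none was higher and 6 did not pass. The share called, 40%, was close to the 32.1% of all genes tested in WAT. Irf1, an early factor of the interferon gamma response, had counts of 107, 32.8, 82.4 and 57.4 in C/C and 196, 164, 127, 266 and 172 in T/T WAT. The groups were apart, with a log2 fold change of -1.48 (SE 0.31, limma adjusted p = 0.00425). Irf8, a factor of macrophages and dendritic cells, had counts of 120.0, 95.5, 94.3 and 91.4 in C/C and 132, 193, 169.7, 191 and 138 in T/T WAT, also without overlap, and a log2 fold change of -0.70 (SE 0.19, limma adjusted p = 0.0128). Irf9, a DNA-binding partner of Stat2, had counts of 172, 130.1, 148.5 and 171 and 204, 322, 224, 218 and 245. It did not overlap either, and its log2 fold change was -0.63 (SE 0.18, limma adjusted p = 0.019). Ifngr1, the ligand-binding chain of the interferon gamma receptor, had counts of 690.4, 382, 454 and 451 in C/C and 732, 835, 831, 927 and 678 in T/T WAT. Mouse 590 lay just above the lowest T/T library, and the log2 fold change was -0.72 (SE 0.20, limma adjusted p = 0.0143).

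The other receptor chain, Ifngr2, had counts of 44.7, 20.6, 31.4 and 29.3 in C/C and 46.8, 22.4, 24.6, 40.7 and 40.9 in T/T WAT, with full overlap and a log2 fold change of -0.14 (adjusted p = 0.751) in limma. Jak1, the kinase shared by all interferon receptors, had counts of 1527, 2475, 1735 and 1413 and 1340, 1619.8, 1672, 1333 and 1384, and a log2 fold change of 0.25 (adjusted p = 0.35). Stat2 had counts of 92.9, 114, 85.6 and 105 in C/C and 117, 143, 111, 135 and 119 in T/T WAT, with -0.33 (adjusted p = 0.167). Irf7, the factor that amplifies type I interferon, had counts of 57.6, 60.8, 50.9 and 49.2 and 78.0, 52.5, 93.8, 62.5 and 65.2, and -0.34 (adjusted p = 0.251). Both sets of counts overlapped between the genotypes. Jak2 (-0.55 (adjusted p = 0.107)) and Irf2 (0.03 (adjusted p = 0.923)) did not pass.

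Other genes of the same pathways, taken from lists written for this description with earlier results known, held calls in both directions in WAT, where 32.1% of all genes were called. Of 66 other interferon-stimulated genes tested, 12 were higher and 6 lower in C/C, a share below that of all genes, and their median log2 fold change was -0.05. Parp9, a cofactor of interferon signalling, rose (1.46 (SE 0.27, limma adjusted p = 0.00215)), and Pnp, an enzyme of purine salvage, fell (-1.18 (SE 0.21, limma adjusted p = 0.00205)). Of 24 receptors, sensors and kinases, 4 were higher and 4 lower, a share close to that of all genes. The adaptor Mavs, which relays signals from RNA sensors, had a mean of 33.8 ± 17.5 (SD, n = 4) in C/C and 157 ± 37.9 (SD, n = 5) in T/T, and the log2 fold change was -2.32 (SE 0.34, limma adjusted p = 0.000904). Irf2bp1, a corepressor of Irf2, rose (1.22 (SE 0.20, limma adjusted p = 0.00133)).

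Of 18 other antigen processing genes in WAT, 6 were lower and 1 was higher, where 32.1% of all genes tested were called. The lysosomal protease Ctsl, which can trim the invariant chain, had a mean of 176 ± 54.1 (SD, n = 4) in C/C and 936 ± 208 (SD, n = 5) in T/T, and the log2 fold change was -2.43 (SE 0.24, limma adjusted p = 0.000304). Ifi30, the lysosomal reductase that unfolds class II antigens, fell by a log2 fold change of -2.66 (SE 0.42, limma adjusted p = 0.00119). Genes that act beside Tapbp in class I loading went both ways, since Pdia3, part of the loading complex, was lower (-0.84 (SE 0.18, limma adjusted p = 0.00457)) and the chaperone Canx was higher (0.65 (SE 0.16, limma adjusted p = 0.00956)). Erap1, which trims class I peptides, was lower (-0.73 (SE 0.25, limma adjusted p = 0.038)). These last 3 genes were picked once their values were known. Of 4 immunoproteasome and PA28 genes tested, Psmb8 was lower (-1.17 (SE 0.33, limma adjusted p = 0.0184)) and the others did not pass. Among those, Psme1, a subunit of PA28, had 0.39 (SE 0.15, limma adjusted p = 0.0636), and Psmb9 had -0.81 (SE 0.45, limma adjusted p = 0.187). None of 11 interferon ligand genes was in either table. In liver, no gene of these lists was called by limma.

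Markers of several cell types moved with the genotype in WAT, beside the members, where 32.1% of all genes tested were called. Of 12 macrophage markers, 4 were lower and 2 higher in C/C, with a summed normalized count of 3644 to 6833 in C/C and 3286 to 5232 in T/T. The complement genes C1qa and C1qc, which are made by the same macrophages, went opposite ways (1.06 (SE 0.27, limma adjusted p = 0.0106) and -1.70 (SE 0.21, limma adjusted p = 0.000508)). All 4 plasma cell markers tested were lower, with sums of 912 to 1340 in C/C and 1735 to 3564 in T/T, which do not overlap. Of 8 endothelial markers, 4 were lower and 1 higher (sums of 2576 to 4032 and 3751 to 5289). Of 10 adipocyte markers, 8 were lower and none higher, but the sums overlapped, at 79032 to 251320 in C/C and 140450 to 229390 in T/T. Cfd, the most abundant of them, had 0.52 (SE 0.39, limma adjusted p = 0.325) and Cidec -0.19 (SE 0.30, limma adjusted p = 0.65), and neither passed. Of 3 T cell markers tested, Trbc2 (-1.35 (SE 0.39, limma adjusted p = 0.0187)) and Cd247 (-1.86 (SE 0.55, limma adjusted p = 0.0222)) were lower, and the T cell sums overlapped, at 41.2 to 105 in C/C and 56.8 to 110.0 in T/T. Of 3 hepatocyte markers tested, Alb (-1.68 (SE 0.37, limma adjusted p = 0.00511)) and Cyp2e1 (-1.92 (SE 0.55, limma adjusted p = 0.0227)) were lower. Apoa1 went the other way and did not pass (1.37 (SE 1.14, limma adjusted p = 0.376)). The sums, 203 to 655 in C/C and 828 to 2888 in T/T, did not overlap, but Cyp2e1 made up most of them, with means of 365 in C/C and 1372 in T/T. Of 7 preadipocyte and fibroblast markers, 1 was lower and 2 were higher. The dendritic cell markers tested, Zbtb46 and Itgax, did not pass, and the B cell, NK cell and neutrophil lists had 1 marker each above the limit, none of which passed. No Kupffer cell, plasmacytoid dendritic cell, mesothelial or ovary marker passed either. Fewer cells of a type and less RNA per cell cannot be told apart in whole tissue, and the part of these cell types in the members' values was not tested.

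Without C/C mouse 593, whose library held ovary transcripts, limma called 22 members and 29.6% of all genes in WAT. Of the 22, 20 were among the 23, and the ones lost were Usp18, Gbp2 and H2-T22. Leaving out each WAT mouse in turn gave between 19 and 24 calls, where 23.5 to 33.3% of all genes were called, and 18 of the 23 members passed each time. With the snoRNA share as a term, the log2 fold change of B2m went from -2.05 to -0.88 and that of H2-K1 from -2.10 to -0.61. Irf1 (-1.48 to -0.36), H2-D1 (-1.67 to -0.65), Ifi27 (-1.40 to -0.57) and Isg15 (-2.37 to -1.11) also shrank by more than a factor of 1.5. So did H2-Aa, Gbp2, Igtp, Ifngr1 and H2-T22. H2-Eb1 (-1.22), Cd74 (0.83), Tapbp (0.90) and Ifi35 (1.78) stayed within that factor, as did Tap1, Irf8, Irf9, Ifit1, Ifit3, Ifi47 and Usp18. Bst2 grew from -1.15 to -1.72. The standard error of B2m rose from 0.41 to 0.65. None of the 23 changed sign under that term, and none passed.

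In liver, no member was called, by limma or by edgeR or DESeq2 on the recovered reads. The columns of the liver table run through even and then odd RNA label numbers, an order that follows the labelled genotypes in the WAT table but not in the liver table. The labelled genotypes were used here, and whether the liver labels and columns correspond as intended was not tested. At an unadjusted limma p under 0.05 there were 2 members, H2-K2 and Isg15, of 49, where 1.97% of all liver genes (231 of 11710) were. No member tested in liver had libraries that were apart between the genotypes, where 0.248% of all genes tested did. Class I genes lay close together there, B2m with counts of 26657, 24313, 24201, 21472 and 23023 in C/C and 32780, 19055, 23673, 24513 and 23781 in T/T liver. The log2 fold change of B2m in liver was -0.03 (SE 0.14). H2-K2 had counts of 106, 85.1, 93.0, 94.2 and 138 in C/C and 92.5, 75.5, 63.4, 83.5 and 65.0 in T/T, its log2 fold change was 0.43 (SE 0.16, limma adjusted p = 1.00) and an exact two-sided permutation p of 0.0159 over 252 groupings.

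Isg15 had counts of 198, 129, 257, 200.72 and 215 in C/C and 253, 268, 180.4, 264 and 406 in T/T liver, with overlap. Its log2 fold change was -0.44 (SE 0.20, limma adjusted p = 1.00), with an exact permutation p of 0.119. Ciita was sparse, with counts of 17.1, 5.43, 10.03, 10.3 and 6.34 and 9.43, 16.2, 24.4, 9.88 and 17.6, and had -0.62 (SE 0.35, limma adjusted p = 1.00). All 8 class II genes tested had a log2 fold change below 0 in liver, from -0.62 (Ciita) to -0.08 (H2-Ob), and none passed. H2-Aa, for example, had counts of 532, 217, 337, 304 and 269 in C/C and 285, 349, 469, 337 and 419 in T/T liver, an overlap that covers most of both ranges. The class II genes are read in the same livers, so that their shared sign is not 8 independent observations.

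The genotype difference in WAT was set against that in liver in a fit of all 19 libraries. It differed between the tissues for 19 of the 45 members tested in both, where 29.2% of 10404 genes did. With the mouse as a replicate block, the count was 18, the one lost being Ifit1 (limma adjusted p = 0.0531). For B2m the difference between the tissues was -2.02 (SE 0.45, limma adjusted p = 0.00227) on the log2 scale, for H2-K1 -2.24 (SE 0.52, limma adjusted p = 0.00369) and for H2-D1 -1.75 (SE 0.35, limma adjusted p = 0.00116). Tapbp differed in the other direction, by 1.00 (SE 0.28, limma adjusted p = 0.00968), as did Cd74, by 1.10 (SE 0.35, limma adjusted p = 0.0219). Of the class II chains, H2-Aa differed by -1.26 (SE 0.32, limma adjusted p = 0.00559) and H2-Eb1 by -1.03 (SE 0.34, limma adjusted p = 0.0251). Among interferon genes, the largest differences were those of Isg15 at -1.93 (SE 0.57, limma adjusted p = 0.0155), Ifit3 at -1.46 (SE 0.43, limma adjusted p = 0.0159), Ifi35 at 1.42 (SE 0.36, limma adjusted p = 0.00618), Irf1 at -1.41 (SE 0.36, limma adjusted p = 0.00609) and Ifi27 at -1.36 (SE 0.27, limma adjusted p = 0.00112). That of Isg15 rests on few reads in C/C WAT, since Isg15 passed the count limit there only through the T/T libraries. Gbp2, Igtp, Irf9, Tap1 and H2-T22 passed in WAT but their difference between tissues did not pass. Quantile normalization reduced the count of members from 19 to 12, where 27.4% of all genes differed. No fit of the tissue difference held the snoRNA share as a term. The WAT part of each difference therefore cannot be told apart from that share. The liver part rests on the labelled genotypes, whose match to the columns was not tested.

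Between the tissues, the level of a gene in T/T mice was set side by side as CPM, the recovered reads scaled to a common library total, with no test, since the tables were processed separately and the RNA input differed. H2-K1 had 558 to 939 CPM in T/T liver and 69.0 to 326 in T/T WAT, and H2-Q10 had 1250 to 1439.8 and 35.6 to 70.1. B2m overlapped between the tissues, with 2929 to 4619 in liver and 3343 to 7170 in WAT. The GTPase Iigp1 had 431 to 688 in liver and 49.5 to 68.9 in WAT, and Isg15 had 26.5 to 63.5 and 2.29 to 8.96. Cd74 was higher in WAT, with 275 to 389 CPM against 29.9 to 73.2 in liver.

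Features of the transcripts differ among these genes, as GENCODE vM21 annotates them on GRCm38, an older build than the GRCm39 that the submitters list. The longest annotated transcript had a median of 2022 bases in the 19 members that fell in WAT, 2154 in the 4 that rose and 3575 in the 24 that did not pass. Over all genes in WAT the medians were 2800, 3646 and 3458 bases for genes that fell, rose and did not pass, with a length for 98.3% of the genes tested. Since reads start near the 3′ end, near-identical ends can share reads. Of the windows of 50 bases in the last 400 bases of the coding transcript, 63.5% in H2-T22 were found in its paralog H2-T10, 19.1% in Ifit3 in Ifit3b, 12.3% in H2-D1 in other genes, and 0.6% in H2-K1 in H2-D1. No window of B2m, H2-Aa, H2-Eb1, H2-Ab1, Cd74, Tapbp, Tap1, Ifit1, Ifi27, Ifi35 or Irf1 was found in another gene. The values of H2-T22, Ifit3 and H2-D1 are uncertain to that extent.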

How the data were processed

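RNA of 19 libraries from 13 mice was measured with QuantSeq 3′ FWD, a stranded kit for NextSeq sequencing that primes on the poly(A) tail, with more input RNA per WAT library than per liver. Each library was run 4 times, which gave 76 run samples. Groups came from the genotype and mouse number in the labels. Per tissue, the deposited file is 1 table of normalized counts in which runs were combined. Its signal values are read numbers per gene after the authors' division by a size factor of each library, done for each table alone. The submitters' processing notes list FastQC 0.11.9, HISAT2, SAMtools 1.12, HTSeq, DESeq2 and GRCm39, without settings. The 1 column that no label describes was left out.

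Every value was a whole multiple of 1 step per library, which gave back whole reads for 100% of values (tolerance 0.01). For the main results, log2(deposited normalized count + 1) was fitted with limma 3.58.1 in R 4.3.3 (trend and robust options) over all genes with a mean of at least 10 in the tissue, with Benjamini-Hochberg adjustment over those genes and a threshold of 0.05. Fold changes on this scale understate those of low genes. The tissue difference was an interaction contrast over 19 libraries. Single members were compared with exact two-sided permutation tests. Within a tissue, the limma p-values set the genotype difference against the spread between mice. The main fit of the tissue difference treated both tissues of a mouse as independent libraries.

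Each mouse was left out in turn. Other alternatives were edgeR 4.0.16 (quasi-likelihood test) and DESeq2 1.42.0 on whole reads, library weights, scaling to equal totals or by quantiles, a minimum mean of 50 or none, pseudocounts of 0.5 and 10, and mouse numbers (below 610 or above 630) as a term. Terms for the snoRNA share and for even against odd RNA label numbers in liver were added after the data were seen. The labels give 6 mice both tissues, so the pairing comes from the mouse. The correlations of paired deviations over 10404 genes lay between -0.20 and 0.16. The mouse as a replicate block, an alternative, used limma's duplicateCorrelation.

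Members and lists were chosen with earlier results of these data known. By rule, library values are given for 25 anchor genes, the 3 members of lowest p per class in WAT and the 3 in liver. The 2 genes of lowest p per pathway list, plus Psmb8 and Psmb9, are named with fold changes. A further gene that the rule names is not reported here. Other members are named with fold change and adjusted p. Ratios and further marker genes were picked once values were known. The fits were also run on simulated counts in which known genes were changed. Those counts held no library factor tied to genotype, such as the snoRNA share, and so do not bear on that limit. Sequences come from RefSeq GRCm38.p6. Figures were drawn with matplotlib 3.10.9.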

Additional observations from a re-analysis of the deposited data

Results flagged for a closer look

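The effect of genotype differed between WAT and liver for 19 members by the interaction test (limma, adjusted over 10404 genes), where 29.2% of all genes tested did. The differences that have not been given above, as WAT effect minus liver effect on the log2 scale, were -1.90 for H2-K2 (adjusted p = 0.0159), -1.14 for Usp18 (0.0172), -0.82 for Irf8 (0.0183), -0.81 for Ifngr1 (0.0188), -0.83 for Ifi47 (0.0285), -1.05 for Bst2 (0.0294) and -1.13 for Ifit1 (0.0425). The calls of Ifit1, Bst2 and Ifi47 were not stable. That of Ifit1 was lost in 14 of its 25 alternatives (adjusted p up to 0.159), 10 of which left out 1 library each, and those of Bst2 and Ifi47 in 7 of 26 each (up to 0.0771 and 0.0799), 6 of which left out 1 library. For Ifit1 the libraries were WAT of mice 599, 607, 608 and 658 and livers of 592, 639, 607, 608, 657 and 658, for Bst2 WAT of 599, 638 and 657 and livers of 639, 608 and 657, and for Ifi47 WAT of 593, 638 and 658 and livers of 590, 592 and 658. Without the WAT library of C/C mouse 638, the calls of Cd74 and H2-Eb1 (limma adjusted p = 0.0664 for H2-Eb1) were lost, and quantile normalization ended those of Cd74, Isg15, Usp18 and H2-K2. Those given above were -2.24 for H2-K1, -2.02 for B2m, -1.93 for Isg15, -1.75 for H2-D1, -1.46 for Ifit3, -1.41 for Irf1, -1.36 for Ifi27, -1.26 for H2-Aa and -1.03 for H2-Eb1, and in the other direction 1.42 for Ifi35, 1.10 for Cd74 and 1.00 for Tapbp. H2-K2 is the only one of these 19 that did not pass in WAT alone, where it had a log2 fold change of -1.46 (adjusted p = 0.0764), against 0.43 in liver. It passed the count limit in WAT only through the T/T libraries, with 2.81 to 9.41 in C/C and 4.47 to 33.7 in T/T, so that its difference between tissues rests on few reads. The same holds for Isg15, with 0.936 to 8.23 in C/C and 11.2 to 41.7 in T/T WAT. The mice of the C/C WAT libraries and of the C/C livers were only in part the same. For all 19, the WAT effect cannot be told apart from the snoRNA share, which was not a term in these fits. The liver effect rests on labels whose match to the columns was not tested.

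Among 112 groups of 4 or 5 libraries, 6 held a library far from the others by Dixon's criterion, and chance gives about 1 in 20. In C/C WAT, mouse 590 was high for Irf8 (120.0 against 91.4 to 95.5 in the other 3) and for Igtp (133 against 60.9 to 67.2). T/T mouse 609 was low for Ifi47 in WAT (64.7 against 104 to 118). C/C mouse 638 was high in WAT for the ratio of Cd74 to H2-Aa (29.3 against 13.8 to 16.3) and for that of H2-Ab1 to H2-Eb1 (4.26 against 2.12 to 2.37). In liver, T/T mouse 607 was high for the ratio of Cd74 to H2-Aa (1.82 against 0.606 to 0.954).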

How the results depend on the processing

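The count of WAT members called stayed between 19 (minimum mean of 50) and 26 (library weights) over the other tools, filters, scalings and weights, with 24 by edgeR and 24 by DESeq2, and between 19 and 24 with each mouse left out. The 19 at a minimum mean of 50 were of 35 members tested, where 39.5% of all genes were called. The 26 were of 47, where 37.5% were. All-gene shares were 32.45% by edgeR, 37.3% by DESeq2, 21.4% without a filter and 23.5 to 33.3% with each mouse left out. With the snoRNA share as a term the count of members was 0, with 0 higher and 0 lower, and the term cannot be told apart from the genotype because the share does not overlap. Over 456 alternative values of the 23 called members, 409 kept direction and call, 47 lost the call and 0 changed sign. Without the snoRNA term, 18 of the 23 kept their call throughout, and with it 0 did. The liver count was 0 in every setting, including the term for even against odd label numbers. The count of members whose effect differed between tissues was 19, where 29.2% of all genes differed, and 12 under quantile normalization, where 27.4% did. The cause of that drop was not tested. The count was 18 with the replicate block of paired mice, where 26.5% of all genes differed, and 15 to 24 with each library left out, where 23.6 to 33.1% did. No setting for this count held the snoRNA share as a term. Among WAT members that did not pass, signs changed for H2-Ab1 (-0.0597 with quantile normalization), Ciita in WAT (-0.10 with library weights, -0.0212 with the snoRNA term, -0.0653 to 0.25 with each mouse left out, below 0 without C/C mouse 590 or T/T mouse 609), Ifngr2 (0.67 with the snoRNA term, -0.32 to 0.0370 with each mouse left out, above 0 without C/C mouse 593) and Jak1 (-0.18 with the snoRNA term). Nlrc5 in WAT gained a call with library weights and without C/C mouse 593. Depth limits members tested near the minimum mean in WAT, such as H2-DMb2, Tap2, Ifit2 and H2-Ob.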
